A study of Mus musculus with 6 samples.

Results

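Cells with transcripts of immature, granule-stage neutrophils were examined in single-cell RNA profiles of 6 mouse rhabdoid tumors. The name rests on mRNA alone, and the filling of granules was not measured. The cells were chosen by 3 limits on measured counts of unique molecular identifiers (UMIs, each a captured mRNA molecule). Cells were kept from 200 detected genes upwards and up to a mitochondrial share of 25% of UMIs. A kept cell was a granule-stage cell when S100a8 and S100a9 together gave at least 300 of 10000 UMIs, Camp and Ngp together gave at least 100 of 10000, and Mpo gave fewer than 3 UMIs. These limits selected 1433 of 22163 kept cells (6.47%), out of 22681 cells in the tables. Levels of these 5 genes are therefore given as a description of the choice.

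A neutrophil is built in the bone marrow in steps that can be read from its granule proteins. Promyelocytes make the azurophil granules, which carry myeloperoxidase (Mpo) and the serine proteases Elane, Prtn3 and Ctsg. Myelocytes and metamyelocytes, the last stage that still divides and the stage after it, make the specific granules with lactoferrin (Ltf), lipocalin-2 (Lcn2), the cathelicidin Camp and neutrophilic granule protein (Ngp). Band and segmented cells then make gelatinase granules, take up chemokine and cytokine receptors such as Cxcr2 and Csf3r, and leave the marrow. The transcription factor Cebpe is needed for the specific granule step.

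All 6 tumors came from mice with floxed Smarcb1 alleles (Smarcb1 fl/fl) and a tamoxifen-inducible Cre, induced by tamoxifen given to the pregnant mother, and Smarcb1 encodes a subunit of the BAF chromatin remodelling complex. The MYC spinal group held 3 spinal tumors of the Rosa26-cre line, whose Cre is driven ubiquitously, Rosini1172 (age 19 weeks), Rosini1177 (26 weeks) and Rosini1232 (17 weeks). The extracranial rhabdoid tumor (eRT) group held a Rosa26-cre gland tumor (Rosini1148, 17 weeks), a Sox2-cre jaw tumor (Soxertini568_maxilar, 29 weeks) and a Sox2-cre shoulder tumor (Soxertini593, 22 weeks), so Cre line and group were partly confounded, and no tumor-free tissue was measured. Fresh tumors were dissociated with Accutase, red cells were lysed, 7-AAD-negative viable cells were sorted with no selection for a cell type, and droplet libraries were read from the 3′ end of transcripts.

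Kept cells summed to between 3841706 and 26184224 UMIs per tumor. Each tumor was 1 animal and 1 library, and the plots carry the mouse numbers alone. The cell names in the tables were running numbers, so barcodes shared between libraries could not be counted; no granule-stage or related profile was found identical in more than 1 tumor (0 profiles). All intervals below are 95% exact intervals for counting error only. The 3′ counts need not cover the floxed part of Smarcb1, so its 14 UMIs in granule-stage cells of Rosini1177 (9.11 CPM, the gene's UMIs scaled to a class total of 1000000 UMIs) and 11 UMIs in those of Rosini1232 (30.4 CPM) check no recombination.

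Of the genes that name this stage, 3 lie near each other on mouse chromosome 9 (build mm10, GENCODE annotation). Camp spans 109847379 to 109849617 on the minus strand, Ngp 110419747 to 110423012 on the plus strand and Ltf 111019271 to 111042767 on the plus strand. The gap from Camp to Ngp is 570.1 kb and that from Ngp to Ltf 596.3 kb. Lcn2 (32384633 to 32388252) and Fcnb (28076378 to 28084885), which encodes the lectin ficolin B, are both on the minus strand of chromosome 2 and 4299.7 kb apart. Promoter windows are shown because the Ltf, Lcn2, Fcnb and Cebpe levels described below moved with Camp and Ngp from cell to cell. The letters TTGCNNAA, on either strand, are the core of sequences that C/EBP factors such as Cebpe bind. They were searched in the 300 bases from 250 before to 50 after each RefSeq start (GRCm38.p6). The search and the 3 windows printed were chosen after the sequences had been looked at. Each stretch reads 5′ to 3′ on the gene's own strand, lies outside annotated genes and carries the match in capitals.
Ngp, chr9:110419644-110419703, plus strand: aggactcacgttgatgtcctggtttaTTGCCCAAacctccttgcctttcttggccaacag
Ltf, chr9:111019191-111019250, plus strand: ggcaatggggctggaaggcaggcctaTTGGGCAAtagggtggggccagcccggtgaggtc
Fcnb, chr2:28084968-28085027, minus strand: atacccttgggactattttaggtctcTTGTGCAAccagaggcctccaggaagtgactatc

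The capitals begin 138 bases before the Ngp start, 75 before the Ltf start and 123 before the Fcnb start. Of the 5 genes Camp, Ngp, Ltf, Lcn2 and Fcnb, 4 held at least 1 match (80.0%), and the Lcn2 match fell in coding sequence. Camp held none. Among 27025 genes with RefSeq promoter windows of the same length, 3298 held a match in at least 1 window (12.2%). The shares were 5 of 15 specific granule genes with a window (of 16 listed, 33.3%), 2 of 7 azurophil genes (28.6%), 2 of 8 gelatinase and secretory vesicle genes (25%) and 4 of 22 late neutrophil genes (18.2%). A match is only a run of letters and says nothing on binding.

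Granule-stage cells were found mainly in 2 of the 6 tumors. Tumor Rosini1177 held 1271 among 5749 kept cells (22.1%, interval 21.0 to 23.2%), which was 88.7% of all that were found. Tumor Rosini1232 held 154 among 6740 (2.28%, 1.94 to 2.67%). The remaining 8 cells were 4 of 2143 in Rosini1148 (0.187%), 3 of 4020 in Soxertini593 (0.0746%) and 1 of 1469 in Rosini1172 (0.0681%). Tumor Soxertini568_maxilar had 0 of 2042, which allows a share of up to 0.147%. The MYC spinal tumors thus ranged from the second lowest share to the highest, and the groups overlapped. The mean share was 0.0871 ± 0.0939% (SD, n = 3) in eRT and 8.15 ± 12.1% (SD, n = 3) in MYC spinal, a difference of -8.07 percentage points (two-sided exact permutation test, p = 0.3; the smallest p for 3 against 3 is 0.1). Without Rosini1177 the difference was -1.09 percentage points.

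**Figure D1:**
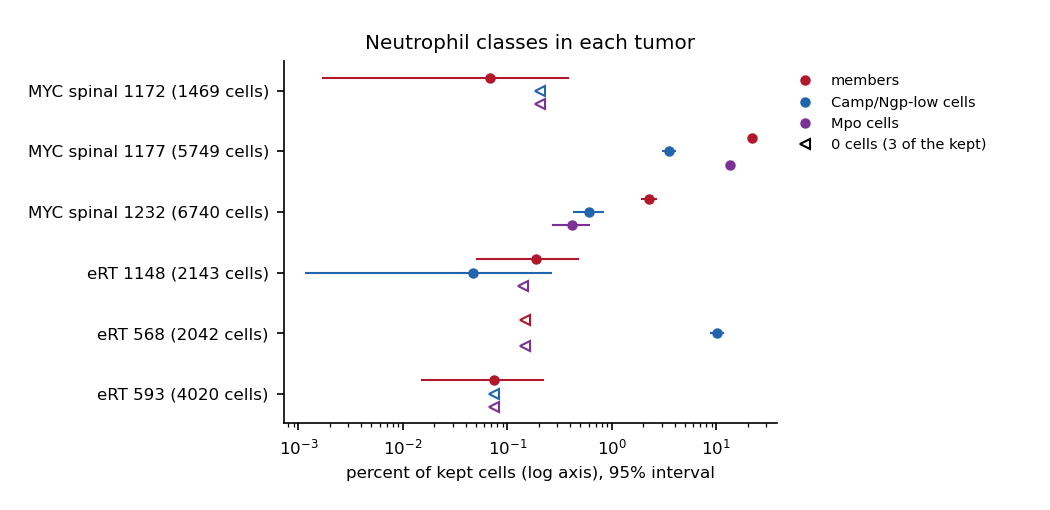
Share of kept cells (percent, log axis) that were granule-stage cells, Camp/Ngp-low cells or Mpo cells in each of the 6 tumors, with 95% exact binomial intervals. Granule-stage cells made up 22.1% of Rosini1177 and 2.28% of Rosini1232, and under 0.2% of the other 4 tumors. Open triangles that point left mark the limit that a count of 0 allows.

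Among the S100a8/S100a9-high cells with fewer than 3 Mpo UMIs, the share at the granule stage was high in both MYC spinal tumors that had such cells in number. It was 86.3% of 1473 cells in Rosini1177 and 79.0% of 195 in Rosini1232. Tumor Soxertini568_maxilar had 208 S100a8/S100a9-high cells, of which 0 reached the Camp and Ngp limit, which allows up to 1.44%. This contrast rests on 1 eRT tumor against 2 MYC spinal tumors, and the exact permutation test could give no p below the 0.333 it gave. The other 3 tumors held 5, 3 and 1 such cells.

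Few cells lay at the edges of the choice. Camp and Ngp together gave 100 to 200 of 10000 UMIs in 102 chosen cells of Rosini1177 and 8 of Rosini1232, and 50 to 100 in 45 and 7 cells just outside. No cell of Rosini1177 that met the other limits had S100a8 and S100a9 between 200 and 300. Mpo gave 2 UMIs in 29 chosen cells of Rosini1177 and 4 of Rosini1232. Another 68 cells of Rosini1177 and 6 of Rosini1232 met both other limits but had 3 or more Mpo UMIs.

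A few messages took a large share of the RNA of chosen cells. Their median depth was 1016 UMIs and 365 genes in Rosini1177 and 2034 UMIs and 681 genes in Rosini1232, beside 728 and 3255 UMIs in the kept cells that were neither S100a8/S100a9-high nor Mpo cells. Median mitochondrial shares of the chosen cells were 0.685% and 0.987%. S100a8 and S100a9, the subunits of the cytosolic alarmin calprotectin, took a median of 35.8% of a cell's UMIs in Rosini1177 and 21.4% in Rosini1232. Camp and Ngp took 6.28% and 7.41%. Both Camp and Ngp were seen in 99.6% of the cells of Rosini1177 and 100% of those of Rosini1232. The balance of the pair differed by tumor: the summed Camp to Ngp ratio was 2.24 in Rosini1177, 0.726 in Rosini1232, 0.950 in the 3 cells of Soxertini593 and 0.184 in the 4 cells of Rosini1148, and the cell of Rosini1172 had 69 Camp and 0 Ngp UMIs.

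The label was checked on Ltf, Lcn2 and Fcnb, which the choice did not use. At least 1 of the 3 was present in 99.1% of cells in Rosini1177 and 100% in Rosini1232, and at least 2 in 91.2% and 98.1%. Free RNA can give such UMIs, so the same genes were read in cells with at least 2 UMIs of lymphocyte markers, whose median depth was 843.5 UMIs in Rosini1177 (246 cells) and 2421 in Rosini1232 (195 cells). Ltf was present in 90.8% of granule-stage against 8.5% of lymphoid cells in Rosini1177, and in 95.5% against 1.0% in Rosini1232. Lcn2 gave 95.3% against 6.5% and 100% against 4.1%. Fcnb gave 23.1% against 0.4% in Rosini1177 and 36.4% against 0 lymphoid cells in Rosini1232. All 3 markers were thus above the lymphoid share in both tumors. This sets the cells apart from the lymphoid background and does not tell their stage from that of other neutrophils.

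The share in lymphoid cells was not low for every gene. Camp itself was present in 39.0% of lymphoid cells in Rosini1177 against 2.1% in Rosini1232, beside 99.9% and 100% of granule-stage cells. The azurophil protease Elane was present in 14.2% of granule-stage and 8.5% of lymphoid cells in Rosini1177, and in 17.5% and 0.5% in Rosini1232, so low azurophil levels in Rosini1177 stood close to the background. Ly6g, the surface antigen used to sort mouse neutrophils, was present in 34.8% against 1.2% in Rosini1177 and in 35.7% against 0 cells in Rosini1232. Cebpe was present in 15.4% and 48.7% of granule-stage cells and in 0 lymphoid cells of either tumor.

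On the scale of CPM of all UMIs, the specific granule genes Ltf and Lcn2 stood at like levels in the 2 tumors. Ltf reached 4044 CPM in Rosini1177 and 3996 CPM in Rosini1232. Lcn2 reached 5102 and 8025 CPM, Chil3, a chitinase-like secreted protein, 2157 and 3454 CPM, and Fcnb 347 and 329 CPM. By abundance over the 2 tumors, Retnlg, a resistin-like secreted protein, lysozyme (Lyz2) and Wfdc21 followed the rule genes and the cytoskeletal Tmsb4x and Actb and the nuclear RNA Malat1. Their mean levels were 9922, 9861 and 7400 CPM.

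Within the granule-stage cells, those with more Camp and Ngp also held more of the other specific granule messages. In this paragraph CPM leaves the 5 rule genes out of the total, and no test was made because the limits used the same cells. The cells were divided at 250, 500 and 1000 Camp and Ngp UMIs per 10000, which gave 164, 290, 641 and 176 cells in Rosini1177 and 16, 29, 71 and 38 in Rosini1232. The lowest division of Rosini1232 is thinly filled. Ltf went from 2998 through 5035 and 7886 to 10696 CPM in Rosini1177, and from 1616 through 3405 and 6092 to 11846 CPM in Rosini1232. Lcn2 went from 4244 to 13466 CPM in Rosini1177 and from 3067 to 24429 CPM in Rosini1232. Both genes were higher in each next division in both tumors. Chil3 went from 904 to 7420 CPM and from 1007 to 11084 CPM. Fcnb went from 179 to 1178 CPM in Rosini1177, and in Rosini1232 from 0 UMIs to 885 CPM. Cebpe followed the same order, from 81.5 to 393 CPM in Rosini1177 and from 93.7 to 1057 CPM in Rosini1232.

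Not every gene followed Camp and Ngp. The collagenase Mmp8 stood at 1572, 1366, 955 and 300 CPM from the lowest to the highest division of Rosini1177. Its levels in Rosini1232 were 375, 226, 251 and 221 CPM, with overlapping intervals. Retnlg dropped from 40610 to 5147 CPM across the divisions of Rosini1177, and in Rosini1232 stood at 4613, 5793, 5440 and 2335 CPM. In Rosini1177 both genes were lowest in the highest division. Mmp9 stood at 1312, 1366, 1343 and 517 CPM in Rosini1177 and at 1218, 791, 317 and 319 CPM in Rosini1232. Anxa1, of the same gelatinase and secretory vesicle list, instead went from 1613 to 4661 CPM in Rosini1177 and from 2365 to 8233 CPM in Rosini1232. The early gene Elane dropped from 1116 through 869 and 674 to 382 CPM in Rosini1177 and in Rosini1232 stood at 0, 212, 969 and 147 CPM, so its order differed between the tumors. Prtn3 stood at 562, 567.8, 410 and 310 CPM in Rosini1177. The summed G2/M genes, a list of 24 mitotic genes that holds Mki67, Top2a and Ccnb1, went from 1458 through 1686 and 2581 to 4888 CPM in Rosini1177 and from 913 through 1116 and 2794 to 5726 CPM in Rosini1232. Median depth varied little over the divisions of Rosini1177 (884 to 1073 UMIs) and was lowest, 1786.5 UMIs, in the highest division of Rosini1232.

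**Figure D2:**
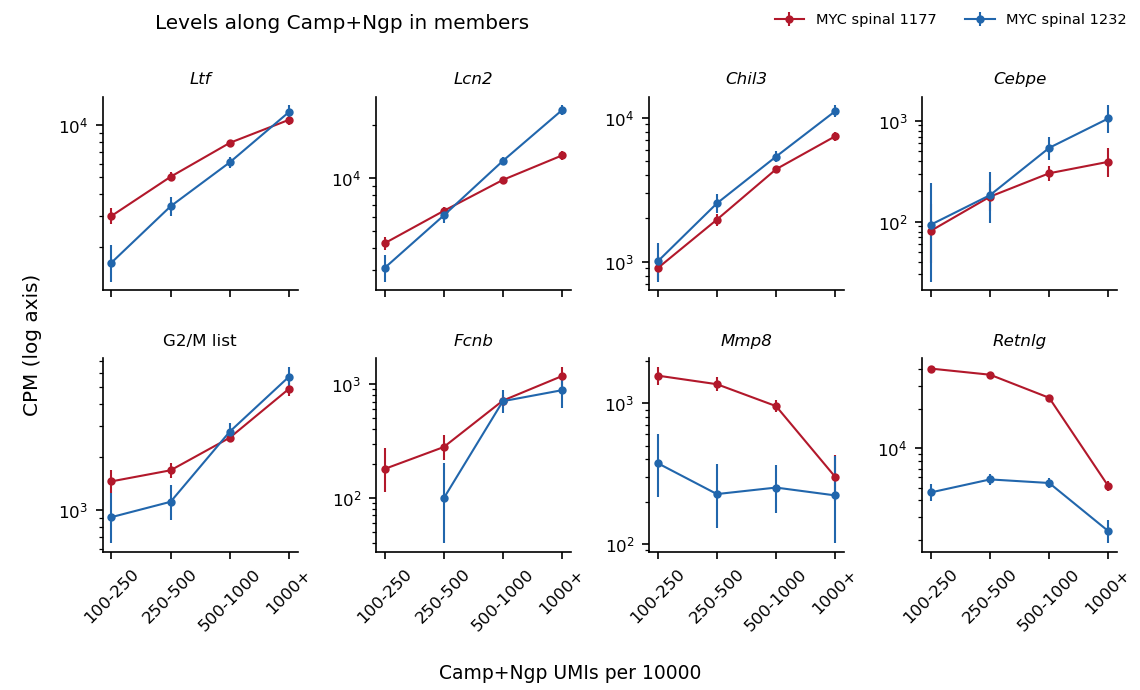
Level of 8 genes or lists (CPM with the 5 rule genes left out, log axis) in granule-stage cells divided by their Camp and Ngp UMIs per 10000, in Rosini1177 (red) and Rosini1232 (blue), with 95% exact Poisson intervals. Ltf, Lcn2, Chil3, Cebpe and the G2/M list are highest in the right-hand division of both tumors, where Retnlg is lowest; Fcnb in the lowest division of Rosini1232 had 0 UMIs and is not drawn.

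Cells just outside the choice were compared next. Camp/Ngp-low cells met the S100a8/S100a9 and Mpo limits but had under 100 Camp and Ngp UMIs per 10000: 202 in Rosini1177, 41 in Rosini1232, 208 in Soxertini568_maxilar and 1 in Rosini1148. The limits separate these cells from the granule stage, so the differences below describe the choice and are read as no test. UMIs were summed per tumor and class for Rosini1177 and Rosini1232, the rule genes were left out of counts and totals, and edgeR's quasi-likelihood fit held the tumor as a block. Of 2838 genes fitted, 62 were higher in granule-stage cells (2.18%) and 28 lower (0.987%) at an adjusted p under 0.05. By list, 7 of 12 fitted specific granule genes were higher and 0 lower, with a median log2 fold change of 1.61 against -0.02 over all genes.

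The specific granule genes gave the clearest values. Ltf stood at 6821 CPM (rule genes left out, as in the rest of the comparisons) in granule-stage and 470 in Camp/Ngp-low cells of Rosini1177. In Rosini1232 it stood at 5529 and 171 CPM. The log2 fold change was 4.30 ± 0.41 (SE of the fit on 2 tumors). Here and in the gene comparisons below, this SE comes from the F statistic moderated across genes. It is not the spread between the 2 tumors. Lcn2 stood at 8605 and 1700 in Rosini1177 and 11104 and 1579 in Rosini1232, a log2 fold change of 2.56 ± 0.35. In both tumors the granule-stage cells were the higher class for each. Fcnb (3.37 ± 0.53), Chil3 (3.03 ± 0.41), the surface protein Cd177 (2.13 ± 0.30), the oxidase subunit Cybb (1.83 ± 0.33) and Pglyrp1, which binds bacterial peptidoglycan (1.39 ± 0.31), were the other 5. Mmp8 (0.38 ± 0.36), Hp (1.09 ± 0.33), Itgam (0.92 ± 0.32), Cyba (0.75 ± 0.29) and Ceacam10 (0.48 ± 0.33) did not pass.

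Cebpe was at 251 and 22.9 CPM in Rosini1177 and at 451 and 0 CPM in Rosini1232 (log2 fold change 4.39 ± 0.60). It was among the 8 fitted granulocyte transcription factors, of which 1 was higher and 1, Irf8, lower. Serpinb1a, an inhibitor of neutrophil serine proteases, stood at 454 and 57.3 CPM and at 795 and 42.7 CPM (3.44 ± 0.39). Anxa1 was the higher 1 of 6 gelatinase and secretory vesicle genes, at 3033 and 928 CPM in Rosini1177 and 4046 and 1057 CPM in Rosini1232 (1.80 ± 0.30). Of 6 fitted subunits of the NADPH oxidase, the enzyme of the oxidative burst, 3 were higher: Cybb, Ncf1 (1.95 ± 0.35) and Ncf4 (1.44 ± 0.30).

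Several genes had nearly no UMIs in the Camp/Ngp-low cells, and for these the counts are given. Orm1, an acute phase plasma glycoprotein, had 316 UMIs against 1 over both tumors, a ratio on equal totals of 72.3 (interval 12.9 to 2865). Gca, a calcium-binding protein named grancalcin, had 229 against 2, a ratio of 26.2 (7.17 to 218). Cep19 had 87 against 2 (ratio 9.96, 2.67 to 83.5), Dfna5 81 against 2 (9.27, 2.48 to 77.8), and Tmem216 82 against 0, at least 6.26-fold higher against 3 counts over both tumors.

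Late neutrophil genes did not follow. Of 23 fitted, 0 were higher and 0 lower (edgeR; 3 had an unadjusted p under 0.05, and DESeq2 called 1), with a median log2 fold change of -0.12, and 6 azurophil genes gave 1 higher and 1 lower. Retnlg stood at 27475 and 29143 CPM in Rosini1177 and 4917 and 12828 CPM in Rosini1232 (-0.74 ± 0.41). The 164 granule-stage cells of Rosini1177 in the lowest Camp and Ngp division held 40610 CPM of Retnlg, more than its Camp/Ngp-low cells. Cxcr2, the chemokine receptor of mature neutrophils, was at 128 and 149 CPM and at 88 and 85 CPM. The 2 classes overlapped across tumors for both genes. Elane was at 751 and 590 CPM in Rosini1177 but at 478 and 0 CPM in Rosini1232 (1.31 ± 0.67).

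Genes lower in granule-stage cells included some of mononuclear phagocytes and of MHC class II. Cd74, the invariant chain of MHC class II, stood at 428 and 1260 CPM in Rosini1177 and 2474 and 7951 CPM in Rosini1232 (log2 fold change -1.63 ± 0.30). H2-Ab1 was at 100 and 384 CPM and at 971 and 2764 CPM (-1.71 ± 0.29). Irf8 (-1.76 ± 0.40), Klf4 (-1.65 ± 0.29), S100a10 (-1.62 ± 0.30), H2-Q7 (-1.89 ± 0.33), Mndal (-1.93 ± 0.32), Emp1 (-1.81 ± 0.32) and BC100530 (-2.08 ± 0.33) were also lower. The imprinted noncoding RNA Meg3 stood at 3.29 and 103 CPM in Rosini1177 and 229 and 1078 CPM in Rosini1232. By list, 2 of 5 macrophage genes were lower, C1qb (0 CPM in both classes of Rosini1177, 107 and 480 CPM in Rosini1232) and the receptor Csf1r (-1.53 ± 0.33), and 2 of 6 monocyte genes, Klf4 and Fn1 (-1.27 ± 0.29). DESeq2 called 0 genes of either list.

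Markers of other cells moved with this comparison. The 9 macrophage markers summed to 77.4 CPM of all UMIs in granule-stage and 256 in Camp/Ngp-low cells of Rosini1177, with 3 and 5 markers at 0, and to 710 and 2448 CPM in Rosini1232, with 0 at 0. The 6 monocyte markers summed to 1261 and 2844 CPM in Rosini1177 and 881 and 716 CPM in Rosini1232. The 7 eosinophil, basophil and mast cell markers summed to 20.2 and 508 CPM in Rosini1177 and to 0 in both classes of Rosini1232, and all 6 erythroid markers were at 0 in both classes and tumors. Of the granule-stage cells, 86 of 1271 in Rosini1177 and 45 of 154 in Rosini1232 held 2 or more UMIs of other lineages. Of the Camp/Ngp-low cells, 34 of 202 in Rosini1177 and 23 of 41 in Rosini1232 did. With all these cells left out, 12 genes were called in place of 90. With the Camp and Ngp limit at 200, or with no tumor block, 0 genes passed, although 541 and 71 had an unadjusted p under 0.05 (edgeR). The part of other cells in the differences was not tested further.

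**Figure D3:**
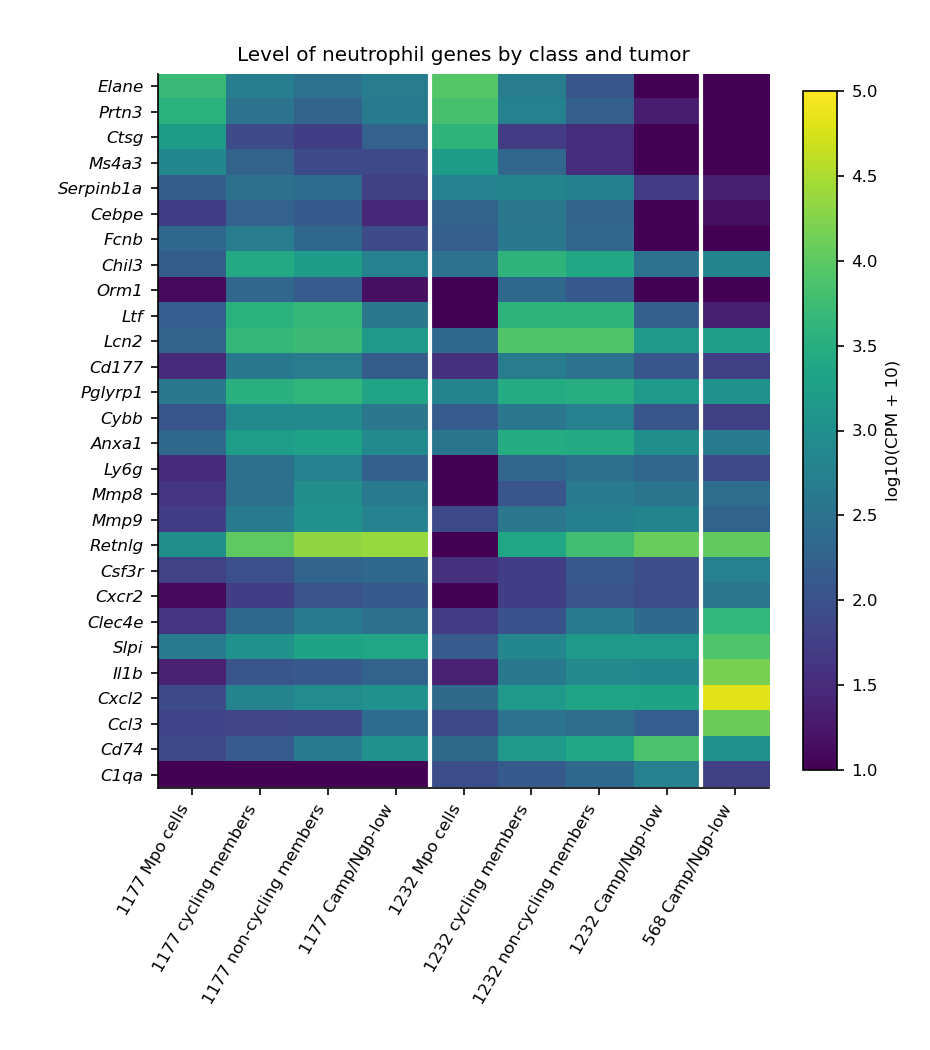
Level of 28 genes, as log10(CPM + 10) of all UMIs, in the Mpo cells, cycling and non-cycling granule-stage cells and Camp/Ngp-low cells of Rosini1177 and Rosini1232, and in the Camp/Ngp-low cells of Soxertini568_maxilar. Elane, Prtn3 and Ctsg are brightest in Mpo cells, Ltf and Lcn2 in granule-stage cells, and Cxcl2 and Il1b in the cells of Soxertini568_maxilar.

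Mpo cells, kept cells with at least 3 UMIs of this azurophil granule gene, numbered 772 in Rosini1177 and 28 in Rosini1232, with 0 in the other 4 tumors. They include the 68 cells of Rosini1177 and 6 of Rosini1232 that met both other limits of the granule stage. The Mpo limit again separates the classes, so these differences are a description. Of 5326 genes fitted, 876 were higher in granule-stage than in Mpo cells (16.4%) and 567 lower (10.6%). By list, all 12 fitted specific granule genes were higher (median log2 fold change 4.09, against 0.01 over all genes), all 8 gelatinase and secretory vesicle genes were higher (4.27), and 22 of 24 late neutrophil genes were higher (3.52). Of 8 azurophil genes 6 were lower and 1 higher (-2.77).

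The proteases of the azurophil granule stood far apart. Ctsg, cathepsin G, was at 92.2 CPM in granule-stage and 1561 CPM in Mpo cells of Rosini1177 and at 45.9 and 4105 CPM in Rosini1232 (log2 fold change -5.01 ± 0.54). Elane was at 751 and 5202 CPM and at 478 and 9276 CPM (-3.46 ± 0.57), and Prtn3 at 459 and 3671 CPM and at 574 and 7074 CPM (-3.25 ± 0.50). Granule-stage cells were the lower class in both tumors for each. Ms4a3 (-2.35 ± 0.36), Prss57 (-1.90 ± 0.38) and the protease inhibitor Cst7 (-3.19 ± 0.42) were lower as well, and Serpinb1a was the higher gene (1.14 ± 0.34).

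Specific granule genes were present in Mpo cells at much lower levels. Without Camp and Ngp they summed to 1985 CPM of all UMIs in Mpo cells of Rosini1177 and 2919 in those of Rosini1232, beside 20043 and 23651 in granule-stage cells and 1113 and 1670 in lymphoid cells. With the rule genes left out of the total, Ltf was at 6821 and 149 CPM in Rosini1177 and 5529 and 0 CPM in Rosini1232, and Lcn2 at 8605 and 187 CPM and at 11104 and 227 CPM. Chil3 was at 3639 and 144 CPM and at 4780 and 313 CPM. Fcnb differed least of the label genes, at 585 and 211 CPM in Rosini1177 and 455 and 156 CPM in Rosini1232 (1.5 ± 0.33). A Fcnb UMI was seen in 20.5% of Mpo cells of Rosini1177 and 21.4% of those of Rosini1232, beside 0.407% and 0% of the lymphoid cells. Genes of later stages were also lower in Mpo cells. Mmp8 was at 1070 and 32.4 CPM in Rosini1177 and 260 and 0 CPM in Rosini1232, the gelatinase Mmp9 at 1257 and 43.6 CPM and at 592.7 and 71.0 CPM, and Retnlg at 27475 and 991 CPM and at 4917 and 0 CPM. Orm1 (277 and 2.82 CPM in Rosini1177, 245 and 0 in Rosini1232), Ifitm6 (log2 fold change 5.73 ± 0.63), AA467197 (5.56 ± 0.47) and Stfa2l1, a stefin (5.49 ± 0.57), had the largest fitted differences beside Ltf, Lcn2, Retnlg and Cxcr2. Another stefin, Stfa1, had 178 UMIs against 3, a ratio of 75.4 (25.4 to 369), and 5430421N21Rik had 78 against 2 (49.6, 13.3 to 417).

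Genes of growth and protein making were lower in granule-stage cells. All 8 ribosome biogenesis genes were lower (median log2 fold change -2.05), among them the nucleolar proteins Npm1, at 155 and 955 CPM in Rosini1177 and 489 and 1506 CPM in Rosini1232 (-2.09 ± 0.40), and Ncl (-2.00 ± 0.33). Of 13 genes of the endoplasmic reticulum and secretion 10 were lower (-1.33), led by the chaperones Calr (-2.63 ± 0.39) and Pdia4 (-2.50 ± 0.39). All 3 progenitor genes were lower by edgeR and 0 were called by DESeq2. Among them was Cd34, at 2.20 and 59.8 CPM in Rosini1177 and at 0 and 28.4 CPM in Rosini1232. Of 19 S phase genes 4 were lower and 0 higher by edgeR, and DESeq2 called 0. Of 23 G2/M genes 0 passed in either direction (edgeR, with 0 at an unadjusted p under 0.05 and 0 by DESeq2, median 0.16). Mcpt8, Phgdh, an enzyme of serine synthesis, Fkbp11, C1qbp and BC035044 were the remaining named genes that were lower, with log2 fold changes of -4.09 to -3.22.

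Transcription factors changed in both directions, 3 of 9 higher and 2 lower. Cebpe was at 251 and 46.5 CPM in Rosini1177 and 451 and 185 CPM in Rosini1232 (2.03 ± 0.35). Cebpb (2.50 ± 0.43) and Spi1, which encodes PU.1 (1.37 ± 0.32), were also higher. Myb, which keeps progenitors dividing, was at 72.4 and 479 CPM and at 11.5 and 142 CPM (-2.92 ± 0.38), and Irf8 was lower (-1.41 ± 0.39). All 6 NADPH oxidase genes were higher (median 2.18), as were 9 of 10 cytokines and NF-kB targets (2.37), 4 of 5 interferon response genes and 6 of 11 genes of marrow retention and egress. The granule proteoglycan Srgn (-0.28 ± 0.42) did not pass. Without a tumor block 63 genes passed in place of 1443.

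**Figure D4:**
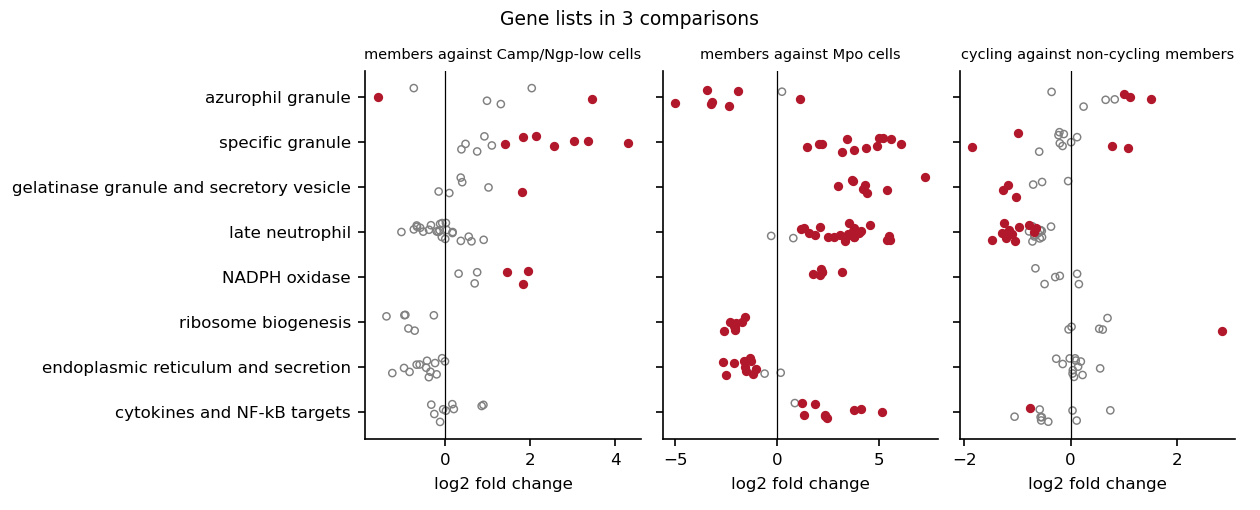
Log2 fold change of the genes of 8 lists in 3 comparisons: granule-stage against Camp/Ngp-low cells, granule-stage against Mpo cells, and cycling against non-cycling granule-stage cells. Each point is a gene and filled points passed an adjusted p under 0.05; specific granule genes lie to the right in the first 2 panels (7 of 12 and 12 of 12 passed), and late neutrophil genes to the left in the third (11 of 23 passed).

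Division was read from a list of G2/M genes that the choice did not use. After each cell was thinned to 500 UMIs, 35.8% of granule-stage cells in Rosini1177 (interval 33.1 to 38.6%; 1231 cells, 40 shallower ones left out) and 43.5% in Rosini1232 (35.5 to 51.7%; 154 cells) held at least 1 G2/M UMI. The Camp/Ngp-low cells gave 32.4% in Rosini1177 (25.8 to 39.6%; 188 cells, 14 left out) and 14.6% in Rosini1232 (5.57 to 29.2%; 41 cells). The difference was 3.38 percentage points in Rosini1177 and 28.9 in Rosini1232, with a mean of 16.1 (19.4 unthinned; exact two-sided sign-flip test, p = 0.5, the smallest p for 2 tumors). The intervals of the 2 classes overlapped in Rosini1177 and not in Rosini1232. Thinned to 1000 UMIs, the mean difference was 12.7 percentage points, and its direction differed between the tumors. Granule-stage and Camp/Ngp-low cells then gave 57.8% and 58.8% in Rosini1177 (614 and 122 shallower cells left out) and 60.4% and 34.1% in Rosini1232.

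Mpo cells gave more, 49.4% in Rosini1177 and 60.7% in Rosini1232, and the lymphoid cells 44.5% and 40.0%, so a G2/M UMI was not particular to the granule stage. S100a8 and S100a9 took a median of 0.442% and 0.495% of UMIs in Mpo cells, beside 35.8% and 21.4% in granule-stage cells. The order of these shares therefore depends in part on the choice. With the rule genes left out of the totals, 0 of 23 G2/M genes passed against Mpo cells (edgeR, median log2 fold change 0.16). S phase UMIs were seen in 22.9% and 30.5% of granule-stage cells and in 59.4% and 67.9% of Mpo cells. Genes per cell, at 500 UMIs, were fewer in granule-stage than in Camp/Ngp-low cells. Medians were 205 against 281 in Rosini1177 and 245.5 against 321 in Rosini1232 (exact sign-flip test, p = 0.5). The 500 UMIs include the rule genes, which take a larger share in granule-stage cells and leave fewer UMIs for other genes. The difference in genes per cell therefore depends at least in part on the choice and is read as no test.

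**Figure D5:**
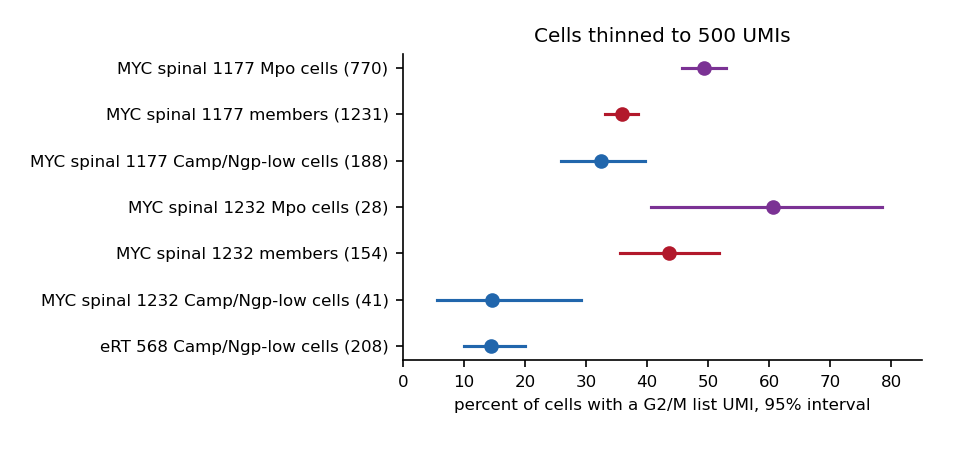
Share of cells (percent) with at least 1 UMI of the G2/M list after thinning to 500 UMIs, by class and tumor, with 95% exact binomial intervals and cell numbers in brackets. Granule-stage cells lie at 35.8% in Rosini1177 and 43.5% in Rosini1232, below the Mpo cells at 49.4% and 60.7%. The 500 UMIs include the rule genes, which take a larger share in granule-stage cells.

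Cycling and non-cycling granule-stage cells were compared within each tumor. Cycling cells held at least 2 G2/M UMIs (420 in Rosini1177, 95 in Rosini1232) and non-cycling cells 0 (612 and 41). The G2/M list and not the rule separates them, and both cell cycle lists were left out of the fit. Cycling cells were also deeper, with a median of 1392 against 853 UMIs in Rosini1177 and 2213 against 1861 in Rosini1232. They held more Camp and Ngp too, at a median of 7.83% against 5.71% of UMIs in Rosini1177 and 8.34% against 6.07% in Rosini1232. The part of Camp and Ngp in the differences below was not tested. Of 3197 genes fitted, 118 were higher in cycling cells (3.69%) and 80 lower (2.5%) at an adjusted p under 0.05 (edgeR quasi-likelihood test, Benjamini-Hochberg).

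Some azurophil genes were higher in the cycling cells. Of 7 fitted, 3 were higher and 0 lower (edgeR; DESeq2 called 0), with a median log2 fold change of 0.83 against 0.00 over all genes. Elane was at 849 CPM in cycling and 530 CPM in non-cycling cells of Rosini1177 and at 662 and 142 CPM in Rosini1232 (log2 fold change 1.0 ± 0.24, adjusted p = 0.00155). Prtn3 was at 542 and 308 CPM and at 788 and 205 CPM (1.11 ± 0.24, adjusted p = 0.000319), and Ms4a3 at 295 and 121 CPM and at 286 and 31.6 CPM (1.52 ± 0.31, adjusted p = 8.15e-05). Each was higher in the cycling cells of both tumors. Elane UMIs were seen in 21.2% of cycling and 9.31% of non-cycling cells of Rosini1177, beside 8.54% of its lymphoid cells, so the non-cycling cells there stood at the background share.

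Specific granule genes split. Fcnb was at 789 and 361 CPM in Rosini1177 and 561 and 268 CPM in Rosini1232 (1.08 ± 0.24, adjusted p = 0.000512), and Chil3 at 4721 and 2734 CPM and at 5592 and 3204 CPM (0.77 ± 0.22, adjusted p = 0.0116). Ltf did not pass, at 5996 and 8113 CPM in Rosini1177 and 5735 and 5383 CPM in Rosini1232 (-0.21 ± 0.22, adjusted p = 0.683). Its direction differed between the tumors. Lcn2 (-0.15 ± 0.23), Cd177 (0.01 ± 0.23), Cybb (-0.20 ± 0.22) and Cebpe (0.57 ± 0.25, adjusted p = 0.168) did not pass. Mmp8 was lower, at 482 and 1636 CPM in Rosini1177 and 149 and 584 CPM in Rosini1232 (-1.85 ± 0.24, adjusted p = 2.66e-11), and so was Ceacam10 (-0.98 ± 0.33). In all, 2 of 12 specific granule genes were higher and 2 lower.

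Some later genes were lower in the cycling cells. Of 23 late neutrophil genes 11 were lower and 0 higher by edgeR, with a median log2 fold change of -0.71, and DESeq2 called 3. Of 6 gelatinase and secretory vesicle genes 3 were lower by edgeR (-0.87), and DESeq2 called 0. Retnlg was at 16943 and 37825 CPM in Rosini1177 and 3211 and 7877 CPM in Rosini1232 (-1.25 ± 0.25, adjusted p = 3.21e-05). Mmp9 was at 709 and 1796 CPM and at 531 and 695 CPM (-1.03 ± 0.23). Clec4e, a receptor for mycobacterial glycolipid, was at 342 and 787 CPM and at 131 and 568.3 CPM (-1.48 ± 0.24, adjusted p = 1.81e-07). The direction was the same in both tumors for these 3 genes. The G-CSF receptor Csf3r was at 142 and 317 CPM and at 65.7 and 158 CPM (-1.21 ± 0.31, adjusted p = 0.00364), and Cxcr2 at 77.4 and 169 CPM and at 65.7 and 126 CPM (-1.11 ± 0.35, adjusted p = 0.0317). Mxd1 (-1.05 ± 0.25), a repressor that opposes MYC, the protease inhibitor Slpi (-0.97 ± 0.22) and Clec4d (-1.28 ± 0.29) were lower too. Adam8 was lower in Rosini1177 only, at 200 and 497 CPM, and stood at 71.6 and 63.1 CPM in Rosini1232.

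Among the remaining genes, those higher in cycling cells included further genes of chromosome packing and segregation that were on neither cell cycle list. Smc2, a condensin subunit, was at 335 and 50.3 CPM in Rosini1177 and 239 and 15.8 CPM in Rosini1232 (2.81 ± 0.37). Cdca8 (3.45 ± 0.54), Hist1h2ap (2.86 ± 0.41), H2afx (2.78 ± 0.42) and Ccdc34 (2.74 ± 0.39) were higher as well. Cdca3 had 93 UMIs against 3, a ratio of 21.9 (7.26 to 108), Ncapg2 40 against 3 (9.42), Nop58 35 against 3 (8.24), Ak6 39 against 1 and Nuf2 25 against 1. Zfhx3 was lower, at 15.0 and 115 CPM in Rosini1177 and 23.9 and 63.1 CPM in Rosini1232 (-2.55 ± 0.49). Cd74 (-1.21 ± 0.22) and the calcium-binding S100a6 (-1.04 ± 0.23) were also lower, and macrophage markers summed to 38.7 CPM of all UMIs in cycling and 101 in non-cycling cells of Rosini1177 and to 617 and 852 CPM in Rosini1232, whose part in the result was not tested. Map1lc3a, Dhrs9, Crabp1, Asprv1, Rgs1, 1600010M07Rik, Pla2g7 and Por completed the named genes, with log2 fold changes of -2.13 to -1.54. Of the other lists, 2 of 4 fitted alarmin genes were lower and 0 higher, and DESeq2 called 2. By edgeR, 2 of 9 genes of marrow retention and egress and 2 of 3 genes reported in suppressor neutrophils were lower and 0 higher. DESeq2 called 0 genes of these lists of retention and suppression. None of 6 NADPH oxidase or 12 endoplasmic reticulum genes passed (edgeR, with 2 and 0 at an unadjusted p under 0.05, and 0 called by DESeq2). With every cell thinned to 1000 UMIs 97 genes passed, DESeq2 called 31 and the fit without a tumor block 0 (59 at an unadjusted p under 0.05).

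The granule-stage cells of Rosini1177 and Rosini1232 were set side by side, 1 tumor each and hence with no test. Of 5151 genes with at least 20 UMIs, 486 were over 2-fold higher in Rosini1232 and 949 over 2-fold lower on the scale of CPM + 10. Some granule genes were close: Ltf at 6821 CPM in Rosini1177 and 5529 in Rosini1232, Lcn2 at 8605 and 11104, Chil3 at 3639 and 4780 and Elane at 751 and 478. Of 12 specific granule genes 3 were over 2-fold lower in Rosini1232 and 0 higher. Of 8 gelatinase and secretory vesicle genes 4 were lower and 0 higher, and of 24 late neutrophil genes 9 were lower and 5 higher. The chemokine receptor Cxcr4, which holds neutrophils in the marrow, was at 514 CPM in Rosini1177 and 26.8 in Rosini1232, and Thbs1, thrombospondin-1, at 979 and 145. Retnlg (27475 and 4917 CPM) and Mmp8 (1070 and 260 CPM) were also higher in Rosini1177. Of 11 genes of marrow retention and egress 5 were over 2-fold lower in Rosini1232 and 0 higher.

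More glycolysis and interferon response genes stood higher than lower in Rosini1232. Of 14 glycolysis and hypoxia genes 8 were over 2-fold higher and 2 lower (median log2 1.13, against -0.17 over all genes), among them Ldha at 282 CPM in Rosini1177 and 971 in Rosini1232, Tpi1 at 46.1 and 302, and the lipid droplet protein Hilpda at 8.78 and 195. Of 5 interferon response genes 3 were over 2-fold higher and 0 lower, with Isg15 at 39.5 and 291 CPM. The 10 cytokines and NF-kB targets went both ways, with 3 over 2-fold higher and 3 lower (Tnf at 57.1 and 22.9 CPM, Tnfaip3 at 156 and 61.2 CPM, Nfkbiz at 459 and 191 CPM). Ifitm1 was at 175 and 1682 CPM, Wfdc17 at 560 and 3155 CPM and the cytokine Il1b at 195 and 711 CPM. All 6 macrophage genes with enough UMIs were over 2-fold higher in Rosini1232 as well, C1qa from 0 to 199 CPM, while B cell markers summed to 106 CPM of all UMIs in Rosini1177 and 2.76 in Rosini1232. Tumor, depth and the markers of other cells cannot be told apart here.

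The 8 cells outside these tumors held too few UMIs for a comparison. The 4 cells of Rosini1148 (7530 UMIs) held 71 Lcn2 and 41 Ltf UMIs, which is 9429 and 5445 CPM of all UMIs, and 0 of Fcnb. Retnlg reached 22975 CPM in them, Chil3 3586 CPM and Serpinb1a 2523 CPM. The 3 cells of Soxertini593 (3176 UMIs) stood at 11650 CPM of Lcn2, 7872 of Ltf and 20466 of Retnlg. The cell of Rosini1172 (1987 UMIs) held 32 Ltf UMIs and 0 of Lcn2. None of the 4 cells of Rosini1148 and 2 of the 3 cells of Soxertini593 held 2 or more G2/M UMIs.

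Tumor Soxertini568_maxilar was the reverse case, with 208 S100a8/S100a9-high cells and 0 at the granule stage. These cells held 0 CPM (of all UMIs) of Camp, 23.9 of Ngp, 11.9 of Ltf and 0 of Fcnb, while Lcn2 stood at 1694 CPM. Late genes were present, with Retnlg at 10520 CPM, G0s2 at 8671, Slpi at 8019 and Clec4e at 4489. The chemokine Cxcl2 was at 67220 CPM in them, beside 1054 and 2040 CPM in the Camp/Ngp-low cells of Rosini1177 and Rosini1232 and 756 and 1639 CPM in their granule-stage cells. Il1b was at 15243 CPM, beside 176 and 716 CPM in Camp/Ngp-low and 116 and 514 CPM in granule-stage cells. Cytokine genes were high in other cells of that tumor too: the list summed to 130894 CPM in these cells, 7671 in the lymphoid cells and 20859 in all kept cells that were not S100a8/S100a9-high, lymphoid cells included, beside 1018 and 2427 in lymphoid cells of Rosini1177 and Rosini1232. Erythroid markers summed to 3371 CPM in these cells and 966 in the lymphoid cells, and their part in these levels was not tested. Their thinned G2/M share was 14.4% (9.95 to 19.9%), beside 16.8% in lymphoid cells of that tumor. With 1 such tumor, its site, Cre line and age cannot be told apart.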

How the data were processed

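The authors deposited a table of raw UMI counts per gene and cell for each tumor, made with Cell Ranger 2.0.2 on mm10 and keeping genes seen in at least 3 cells. Column names gave no sample other than the file's own, and 0 columns were left unused. Cells were chosen by the limits given above; the members and gene lists were chosen with earlier results of these data known. Counts were summed per tumor and class with at least 10 cells, the genes of the rule were left out, and edgeR 4.0.16 (R 4.3.3; TMM, filterByExpr, quasi-likelihood test, Benjamini-Hochberg at 0.05) was fitted with tumor as a block, after the step was tested on simulated data. With 2 tumors this leaves 1 residual degree of freedom per gene, moderated across genes. The block takes out differences in level between the animals. The p-values therefore measure only how far the class difference varied between these 2 animals. A test of eRT against MYC spinal in these cells, and the interaction, could not be fitted, since only Rosini1177 and Rosini1232 had enough cells. DESeq2 1.42.0, other limits, thinning (seed 1) and Python 3.11.15 with scipy 1.17.1 served for alternatives and exact tests. Scrublet (scanpy 1.11.5) marked 21 cells (0.0948%), too few to have worked, so none were removed; the 843 highest scores (0.8% per 1000 cells; 118 granule-stage cells) were left out as an alternative. Where the comparison class of a named gene held fewer than 4 UMIs over both tumors, counts are given, and 0 as a bound against 3 counts. Other low sums, such as those of 1 tumor or of the granule-stage cells, may stand as CPM alone. Named genes were those of the lists, the 20 most abundant, and the 10 largest called changes per direction with the same sign in both tumors and a mean log2 CPM of at least 5. Aligner settings beyond Cell Ranger's defaults are not given in the sources used here.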

Additional observations from a re-analysis of the deposited data

How the results depend on the processing

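Against Camp/Ngp-low cells, 90 genes were called. Library sizes without TMM factors gave 191 (58.6% of them higher, beside 68.9%), DESeq2 42, every gene with at least 1 UMI 215 (85.6% higher), limits of 500 genes and 10% mitochondrial UMIs 140, S100a8/S100a9 limits of 200 and 500 both 167 (51.5% higher at 500), Scrublet's highest scores left out 233 (57.1% higher), cells with UMIs of other lineages left out 12, and the rule genes kept 143 (58.0% higher). A Camp and Ngp limit of 200, no tumor block, and no tumor block with the cells of Soxertini568_maxilar added (chosen after seeing the data) gave 0, with 541, 71 and 73 genes at an unadjusted p under 0.05. Using every gene moved the median of all genes to 0.24. Against Mpo cells, 1443 became 572 with DESeq2 and 63 (88.9% higher) with no tumor block, and stayed between 1180 and 1991 otherwise. For cycling cells, 198 became 98 without TMM factors (72.4% higher, beside 59.6%), 31 with DESeq2, 87 with every gene (72.4% higher), 67 with the limits of 500 genes and 10%, 97 thinned to 1000 UMIs and 0 (59 at an unadjusted p under 0.05) with no tumor block. The cause of these moves was not tested.

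Leaving out 1 tumor moved the share difference between -12.1 and -1.09 percentage points, the share of S100a8/S100a9-high cells between -86.3 and -79.0, the G2/M share difference between 3.38 and 28.9 and genes per cell between -76.0 and -75.5. The difference in median log2 UMIs per cell, 0.024, ranged from -0.16 without Rosini1177 to 0.21 without Rosini1232, and was -0.12 with cells of other lineages left out. Among named genes, C1qb against Camp/Ngp-low cells was -2.07 without Rosini1177 and 0.00 without Rosini1232, Osm against Mpo cells -0.19 without Rosini1177 and 1.98 without Rosini1232, and Adam8 in cycling cells 0.16 without Rosini1177 and -1.27 without Rosini1232. For named genes, 367, 1542 and 390 alternatives were counted as unchanged in the 3 comparisons, and 151, 127 and 178 kept the direction but not the side of the threshold. The unchanged count includes alternatives that left out a tumor, which have no p-value and were judged on direction alone. The other unchanged alternatives kept the direction and the side of the threshold. No paired analysis was possible because eRT and MYC spinal tumors come from different mice. The mouse line as a covariate was not run. Leaving out a tumor leaves no residual degrees of freedom for the gene fits, so those are values with no test. Depth limits low genes: 3 counts are 1.95 CPM in the granule-stage cells of Rosini1177, 8.29 CPM in Rosini1232 and 398 CPM or more elsewhere.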
